A study of Mus musculus with 6 samples.

Results

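Hmgcs1, Idi1, Fdft1, Sqle, Cyp51, Dhcr7 and Insig1 are genes of cholesterol synthesis and its feedback control whose transcription is known to be driven by the sterol-responsive factor SREBP2. These 7 genes were identified by their symbols in the annotation, by a rule that names no measured value, and were found once each among the 54838 genes of the count table. They were described in hippocampi of 3 wild-type and 3 FVB/NJ-Tg(Orai1)Ibd mice, all females aged 7 months, with 1 RNAseq library per mouse. The transgene places human ORAI1, the pore subunit of the store-operated calcium channel, in a Thy1.2 cassette that is expressed in neurons; it was made by pronuclear injection on the FVB/NJ background, the wild-type mice carry no transgene, and a single transgenic line was used. No other treatment separates the groups. The comparison asked whether overexpression of ORAI1 in neurons goes with another level of the sterol genes in the hippocampus.

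The libraries held 37414241 to 52497799 counted fragments and 27237 to 28352 detected genes. Counts assigned to mouse Orai1 followed the labels, at 7.16 to 8.08 CPM (counts scaled to the size of the library, by TMM) in wild-type and 313 to 331 CPM in transgenic mice. Of the 7 sterol genes all passed the filter on low counts, with 737 to 12646 raw counts per library. Choroid plexus markers stood apart between the genotypes. All 10 of 10 were lower in transgenic mice, and their summed level ran from 3723 to 5863 CPM in wild-type and from 531 to 842 CPM in transgenic mice. In whole tissue, fewer cells of a type and less RNA per cell cannot be told apart.

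Cholesterol does not cross the blood-brain barrier to a useful extent, so the brain makes its own. Oligodendrocytes make large amounts for myelin during development, and in the adult brain astrocytes are a main source, with neurons supplied through lipoproteins. When cholesterol in the endoplasmic reticulum is low, the escort protein SCAP carries SREBP2 to the Golgi, where a pair of proteases free its active part, which enters the nucleus and binds sterol regulatory elements beside sites for NF-Y and Sp1. When cholesterol is high, INSIG proteins hold SCAP back, and because Insig1 is itself an SREBP target the circuit limits its own output. Of the 7 genes, 6 encode enzymes of synthesis and Insig1 encodes the brake; no receptor for cholesterol uptake is among them.

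Promoter sequence is shown because the 7 genes are grouped by a shared regulator. RefSeq windows of the GRCm38.p6 build, 250 bases before to 50 bases after a start site, were matched for 5 of the 7 genes, namely Hmgcs1, Idi1, Insig1, Cyp51 and Dhcr7, the last with 3 start sites. They were searched on both strands for the sterol regulatory element as TCACNCCAC and its shorter form TCACNCCA, which lies inside it, for CCAAT, the core bound by NF-Y, and for GGGCGG, the GC box bound by Sp1. The stretches below run 5′ to 3′ on the strand of the gene, stop before any annotated 5′ UTR, and have the matched motifs in capitals. A motif on the opposite strand appears as its reverse complement, ATTGG for CCAAT and CCGCCC for GGGCGG. They are Hmgcs1 at chr13:119690101-119690350 on the plus strand, Insig1 at chr5:28071162-28071362 on the plus strand, Cyp51 at chr5:4104747-4104947 on the minus strand, and Dhcr7 at chr7:143829964-143830076 on the plus strand, the last of these being its most downstream window.
Hmgcs1: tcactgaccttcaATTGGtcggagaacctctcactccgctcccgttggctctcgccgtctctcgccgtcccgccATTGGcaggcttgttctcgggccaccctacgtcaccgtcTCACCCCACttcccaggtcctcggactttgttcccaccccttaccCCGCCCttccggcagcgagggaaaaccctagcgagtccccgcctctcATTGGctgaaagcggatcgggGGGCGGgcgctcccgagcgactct
Insig1: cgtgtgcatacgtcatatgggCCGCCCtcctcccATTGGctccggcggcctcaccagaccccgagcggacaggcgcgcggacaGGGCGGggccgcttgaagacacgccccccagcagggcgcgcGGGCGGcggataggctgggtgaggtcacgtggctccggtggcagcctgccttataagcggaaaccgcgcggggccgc
Cyp51: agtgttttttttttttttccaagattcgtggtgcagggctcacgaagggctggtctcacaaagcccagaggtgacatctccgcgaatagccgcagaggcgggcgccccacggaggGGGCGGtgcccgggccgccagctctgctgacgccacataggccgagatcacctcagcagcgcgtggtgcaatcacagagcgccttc
Dhcr7: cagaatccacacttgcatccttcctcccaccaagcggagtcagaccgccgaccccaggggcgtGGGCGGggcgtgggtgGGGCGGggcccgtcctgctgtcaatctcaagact

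The sterol regulatory element, in its longer and its shorter form, was matched only in the window of Hmgcs1 among the windows of these 5 genes, as TCACCCCAC that begins 137 bases before the start site. Among all 32851 promoter windows, 1.242% held TCACNCCAC and 4.362% held TCACNCCA. CCAAT was matched in windows of all 5 genes, 4 times for Hmgcs1, 2 times for Idi1, once for Insig1, once for Cyp51 and 2 times in 1 window of Dhcr7; 37.408% of all windows held it. GGGCGG was likewise matched in windows of all 5 genes and in 35.658% of all windows, with 3 matches each for Hmgcs1, Insig1 and the most downstream window of Dhcr7. These counts cover the whole windows and include matches past the end of a printed stretch. By position from the start site, those are CCAAT of Cyp51 at -29, of Dhcr7 at -85 and -49 and of Hmgcs1 at 10. GGGCGG lies past that end for Dhcr7 at -20 and for Hmgcs1 at 32. A match of these letters is a description of the window and not a measured binding site. Only these spellings were searched, and only in these windows, so the lack of a match does not show that a gene lacks a sterol regulatory element.

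Levels between genes are compared per length, as FPKM, fragments per kilobase of gene length scaled to the total count of the library, with the mean ± SD of 3 mice. In wild-type hippocampus Hmgcs1, which makes HMG-CoA at the entry of the mevalonate pathway, was the most abundant of the 7 at 47.1 ± 5.53 FPKM (SD, n = 3). Insig1 followed at 16.8 ± 1.605 FPKM and Fdft1 at 15.2 ± 0.908 FPKM, and the values of these neighbours overlapped between mice. Cyp51 at 11.9 ± 1.37 FPKM and Sqle at 9.75 ± 1.11 FPKM overlapped as well. Idi1 at 7.09 ± 0.764 FPKM and Dhcr7 at 6.06 ± 0.252 FPKM were the lowest and overlapped. FPKM divides by the deposited gene length, which is 5817 bases for Dhcr7 and 3505 bases for Idi1. Their longest transcripts have 2815 and 3027 bases, so the rank and percentile of Dhcr7 depend on the length used. Between Hmgcs1 and Insig1, Fdft1 and Cyp51, and Sqle and Idi1 the values of the wild-type mice did not overlap. Against all 19087 genes tested, the 7 lay between percentile 61.09 for Dhcr7 and percentile 95.36 for Hmgcs1 by wild-type FPKM. In transgenic mice the order began with Hmgcs1 at 44.3 ± 3.80 FPKM, followed by Fdft1 at 17.8 ± 2.15 FPKM and Insig1 at 14.8 ± 0.980 FPKM, with the others in the wild-type order except that Dhcr7 at 6.33 ± 0.505 FPKM stood above Idi1 at 6.14 ± 0.498 FPKM, a pair that overlapped there too.

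None of the 7 genes passed the adjusted threshold for a difference between genotypes, and their estimates pointed both ways. In the edgeR fit, a quasi-likelihood test with p-values adjusted over all genes by Benjamini-Hochberg, 0 of 7 had an adjusted p under 0.05, against 7.10% of all genes tested (591 of them higher and 764 lower with the transgene). By unadjusted p under 0.05 it was 1 of 7, Fdft1, against 27.8% of all genes. DESeq2 also called 0 of 7, against 11.7% of all genes, and limma-voom 0 of 7, against 6.61%. In 0 of 7 were the groups separate, whereas 34.9% of all genes had transgenic values all above or all below the wild-type values. Estimates were higher for 3 genes and lower for 4, with a median log2 fold change of -0.028, beside -0.010 over all genes tested. The plot of normalized counts by mouse shows the single values.

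**Figure D1:**
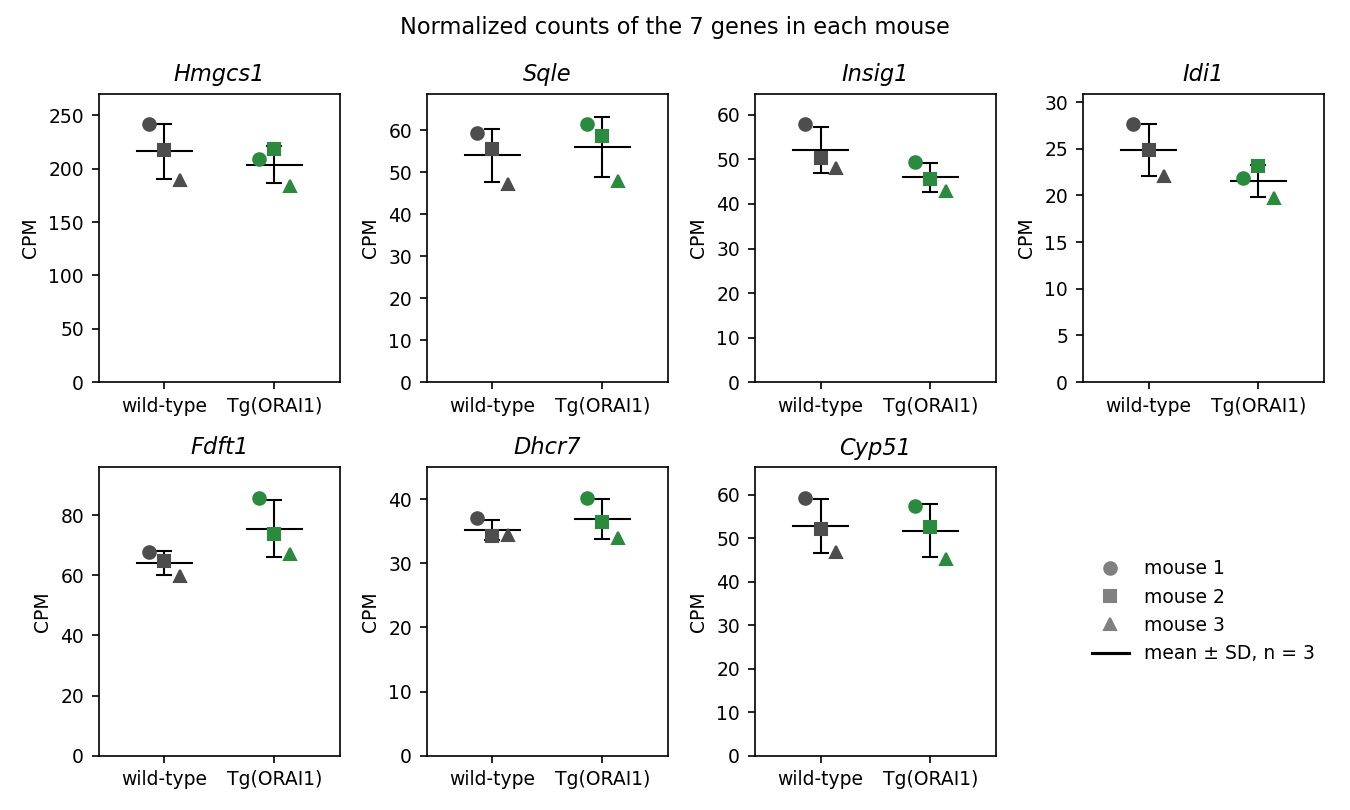
Normalized counts (CPM, linear axis from 0) of each of the 7 genes in the 3 wild-type mice (grey) and the 3 transgenic mice (green), with the symbol giving the mouse number and the bars the mean ± SD. The groups overlap for every gene, and mouse 3 lies low in both genotypes for most of them.

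At the entry of the mevalonate pathway, Hmgcs1 (chromosome 13, 119690379 to 119708260, plus strand, GRCm38) had 242, 218 and 189 CPM in wild-type mice 1, 2 and 3 and 209, 218 and 184 CPM in transgenic mice 1, 2 and 3. Only wild-type mouse 1 lay above the transgenic range. The log2 fold change of transgenic over wild-type was -0.086 ± 0.098 (SE; 95% interval -0.31 to 0.14; edgeR adjusted p = 0.617). Idi1 (chromosome 13, 8885501 to 8892451, plus strand), the isomerase that interconverts the isoprenoid building blocks, had 27.6, 24.9 and 22.1 CPM in wild-type and 21.9, 23.1 and 19.7 CPM in transgenic mice. Wild-type mice 1 and 2 were above all transgenic mice, and wild-type mouse 3 was not. Its log2 fold change was -0.21 ± 0.097 (95% interval -0.43 to 0.020; edgeR adjusted p = 0.215).

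Fdft1 (chromosome 14, 63145150 to 63179578, minus strand), squalene synthase, commits the pathway to sterols. It had 67.7, 64.8 and 59.7 CPM in wild-type and 85.8, 73.6 and 67.1 CPM in transgenic mice. Transgenic mice 1 and 2 lay above all wild-type mice, and transgenic mouse 3 lay between wild-type mice 1 and 2. With a log2 fold change of 0.24 ± 0.093 (95% interval 0.021 to 0.45) it had the largest estimate of the 7, at an unadjusted p of 0.0358 and an adjusted p of 0.149 in edgeR. That place depended on single mice. Without transgenic mouse 1 Fdft1 had 0.13, beside -0.23 for Insig1 and -0.22 for Idi1. Without wild-type mouse 3 it had 0.20, beside -0.28 for Idi1. Sqle (chromosome 15, 59315077 to 59331192, plus strand), squalene epoxidase, a rate-controlling step, had 59.5, 55.6 and 47.1 CPM in wild-type and 61.4, 58.6 and 47.9 CPM in transgenic mice. The ranges nearly coincided, and the log2 fold change was 0.050 ± 0.11 (95% interval -0.21 to 0.31; edgeR adjusted p = 0.815).

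Cyp51 (chromosome 5, 4081145 to 4104746, minus strand), the demethylase of lanosterol, had 59.2, 52.1 and 46.8 CPM in wild-type and 57.4, 52.6 and 45.2 CPM in transgenic mice. Both ranges again nearly coincided, with a log2 fold change of -0.028 ± 0.11 (95% interval -0.28 to 0.23; edgeR adjusted p = 0.897). Dhcr7 (chromosome 7, 143823145 to 143848410, plus strand), the reductase of the last step towards cholesterol, had 37.05, 34.2 and 34.5 CPM in wild-type and 40.2, 36.4 and 34.0 CPM in transgenic mice. Transgenic mouse 1 was the highest and transgenic mouse 3 the lowest of all 6, and the log2 fold change was 0.066 ± 0.072 (95% interval -0.10 to 0.23; edgeR adjusted p = 0.600).

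The brake, Insig1 (chromosome 5, 28071363 to 28078662, plus strand), had 57.9, 50.3 and 48.03 CPM in wild-type and 49.5, 45.6 and 43.0 CPM in transgenic mice. Only transgenic mouse 1 reached into the wild-type range. Its log2 fold change was -0.18 ± 0.084 (95% interval -0.37 to 0.016; edgeR adjusted p = 0.214). Across the 7 genes the outermost bounds of the 95% intervals were -0.43 for Idi1 and 0.45 for Fdft1 on the log2 scale.

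Some of these genes lie in sequence they share. Of the 76-base words of the longest transcript, 20.63% for Idi1, 5.91% for Fdft1 and 0.84% for Insig1 occur in transcripts of genes elsewhere in the genome, and 0 for the other 4 genes. The words of Idi1 were shared most with Gm13502, so its counts depend on how such reads were assigned and its value is uncertain. On the opposite strand Hmgcs1 overlaps Gm48342 (12.16% of its words), Idi1 overlaps Gm48574 (8.4%), Fdft1 overlaps Ctsb (19.29%) and Cyp51 overlaps Akap9 (2.36%). Counting used the strand.

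Fold changes across all genes moved with the GC content of the transcript, and the 7 genes were read against this. Over 11188 genes with a mean above 3 on the log2 CPM scale, Spearman's rho of log2 fold change and GC content was 0.566, as a description across genes, which are not independent replicates and share the 6 libraries. The median log2 fold change went from -0.17 in the decile of genes around 39.6% GC to 0.16 in the decile around 59.8% GC. The pair of genes lowest in GC among the 7, Idi1 at 41.9% and Hmgcs1 at 43.1%, had negative estimates, and the pair highest in GC, Fdft1 at 51.8% and Dhcr7 at 52.8%, had positive estimates. Genes within 1 percentage point of GC of Idi1 had -0.12 as their median log2 fold change, and those around Hmgcs1 had -0.097, around Fdft1 0.071 and around Dhcr7 0.080. Fdft1 itself, at 0.24, lay above the upper quartile of 0.15 among its genes of like GC. The genes between did not all follow the GC trend. Insig1 at 48.2% GC had -0.18 beside a median of -0.016 and a lower quartile of -0.11 among genes of like GC. Sqle at 48.6% had 0.050 beside a median of -0.011, and Cyp51 at 46.2% had -0.028 beside a median of -0.044. With a GC offset in the fit, estimates were higher for 5 genes and lower for 2, Insig1 at -0.13 and Idi1 at -0.061, and Fdft1 stood at 0.21. In that fit 0 of 7 genes passed an unadjusted p of 0.05, against 21.3% of all genes, and 0 of 7 passed the adjusted threshold, against 2.15%. The part of GC content in the estimates was not tested otherwise.

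**Figure D2:**
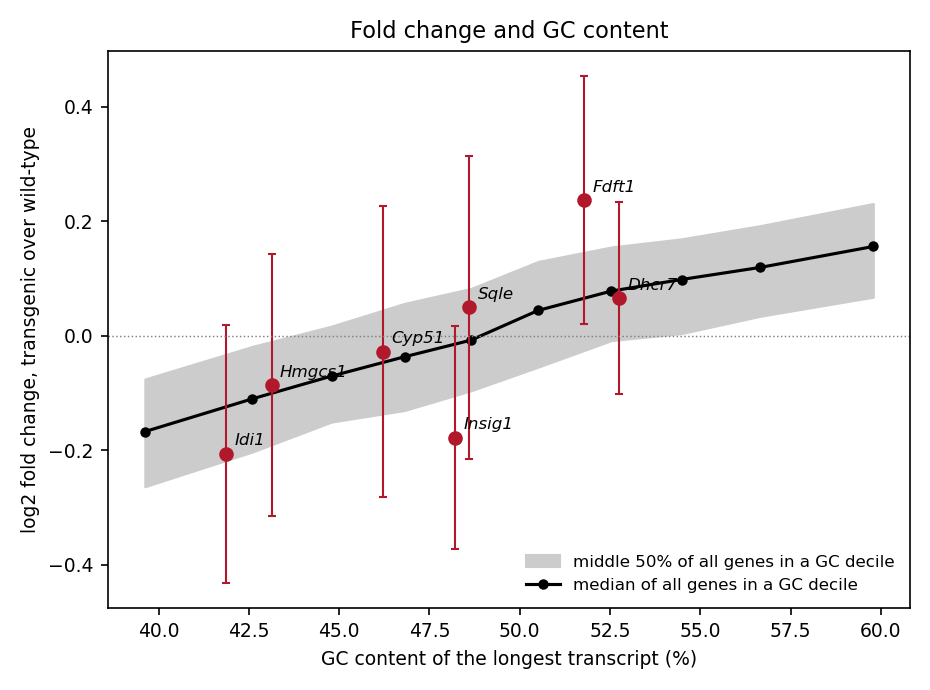
Log2 fold change of transgenic over wild-type against the GC content of the longest transcript (%). The line and the grey band are the median and the middle 50% of all genes in each GC decile, and the red points with bars are the 7 genes with 95% intervals. The median climbs from -0.17 to 0.16, and all 7 intervals reach the band.

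Estimates of the other steps of synthesis also lay on both sides of 0. Of 22 genes of the pathway from acetyl units to cholesterol, 6 of them among the 7, all were tested, 14 estimates lay above 0 and 8 below, and edgeR called 1 in each direction, 2 of 22 beside 7.10% of all genes. The median log2 fold change was 0.073, beside -0.010 over all genes tested. Without adjustment, p was under 0.05 for 6 with a positive and 3 with a negative estimate, 9 of 22 beside 27.8% of all genes. The groups did not overlap in 9 of the 22, all of them among the 16 genes outside the 7, against 34.9% of all genes.

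In the mevalonate and isoprenoid steps 0 of 9 genes were called, beside 7.10% of all genes. The largest estimate was that of Fdps, farnesyl diphosphate synthase, at 7.43, 7.32 and 6.18 CPM in wild-type and 10.2, 9.62 and 8.39 CPM in transgenic mice. All transgenic mice lay above all wild-type mice, with a log2 fold change of 0.43 ± 0.11 that missed the threshold in edgeR (adjusted p = 0.0625) and passed it in DESeq2 (adjusted p = 0.0255). Fdps shares 2.36% of its words with genes elsewhere. Hmgcs1 itself had the highest FPKM of the list in wild-type mice.

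Among the 13 genes from squalene to cholesterol, Ebp, a sterol isomerase, rose and Hsd17b7, a sterol ketoreductase, fell. Ebp had 11.6, 11.3 and 11.8 CPM in wild-type and 14, 14.4 and 13.9 CPM in transgenic mice, with a log2 fold change of 0.28 ± 0.064 (edgeR adjusted p = 0.0440). Hsd17b7 had 21.5, 21.7 and 20.3 CPM in wild-type and 17.0, 17.1 and 18.1 CPM in transgenic mice, with a log2 fold change of -0.29 ± 0.060 (edgeR adjusted p = 0.0375). Neither call held when the fit had a GC offset. The log2 fold change of Ebp was then 0.27 (edgeR adjusted p = 0.0721) and that of Hsd17b7 was -0.18 (edgeR adjusted p = 0.154). Both calls were also lost without a filter on low counts, at log2 fold changes of 0.29 for Ebp (edgeR adjusted p = 0.0684) and -0.28 for Hsd17b7 (0.0584). With gene length offsets they were lost as well, at log2 fold changes of 0.25 for Ebp (0.0758) and -0.26 for Hsd17b7 (0.0615). Ebp missed the threshold when any single library was left out. Its edgeR adjusted p ran from 0.0591 without transgenic mouse 1 (log2 fold change 0.29) to 0.155 without wild-type mouse 1 (0.30). Hsd17b7 passed the threshold only without wild-type mouse 3 (edgeR adjusted p = 0.0487, log2 fold change -0.31). The others gave 0.0572 without transgenic mouse 1 (log2 fold change -0.27) to 0.168 without wild-type mouse 1 (-0.26).

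**Figure D3:**
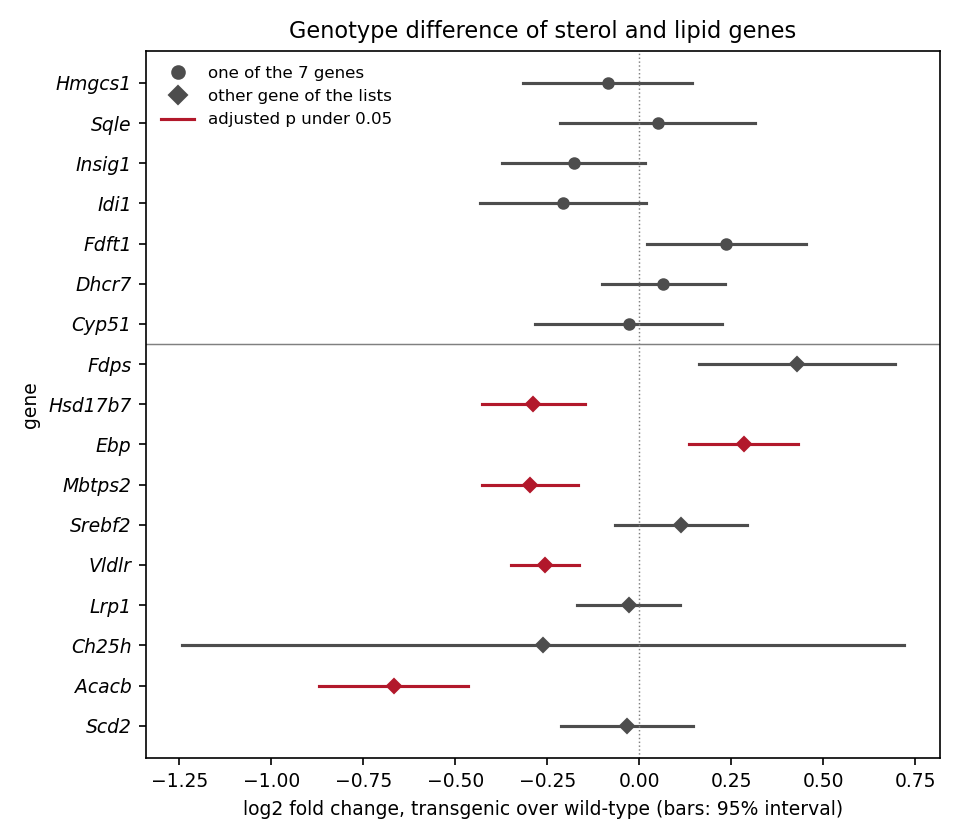
Log2 fold change of transgenic over wild-type (points) with 95% intervals (bars) for the 7 genes (circles, above the line) and for further genes of the sterol and lipid lists (diamonds), with red for an edgeR adjusted p under 0.05. None of the 7 is red, and the interval of Fdft1, from 0.021 to 0.45, is the only one of the 7 that leaves out 0.

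In the machinery of sterol sensing, 1 of 7 genes was called, beside 7.10% of all genes. It was Mbtps2, which encodes the second of the proteases that free SREBP. It had 35.5, 34.6 and 32.7 CPM in wild-type and 26.9, 28.9 and 27.9 CPM in transgenic mice and fell by 0.30 on the log2 scale (SE 0.056; edgeR adjusted p = 0.0307). With a GC offset its log2 fold change was -0.12 (edgeR adjusted p = 0.288) and with gene length offsets -0.19 (edgeR adjusted p = 0.0864). The adjusted p in edgeR was 0.141 without wild-type mouse 1 (log2 fold change -0.25) and 0.130 without wild-type mouse 2 (-0.27). It was 0.0769 without transgenic mouse 2 (-0.30) and 0.104 without transgenic mouse 3. The call was kept without wild-type mouse 3 (edgeR adjusted p = 0.0365) or without transgenic mouse 1 (0.0452). Srebf2, the gene of SREBP2 itself, had 219, 215 and 197 CPM in wild-type and 252, 221 and 210 CPM in transgenic mice, with overlapping groups and a log2 fold change of 0.11 ± 0.077 (edgeR adjusted p = 0.379). Its estimate was 0.020 with a GC offset and 0.18 with gene length offsets, and it ran from 0.032 without transgenic mouse 1 to 0.19 without transgenic mouse 3. Over the list 2 estimates were positive and 5 negative, and their median was -0.077 on the log2 scale.

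Of 12 genes of uptake and intracellular transport, 11 passed the filter and 1 was called, beside 7.10% of all genes. It was Vldlr, a receptor for lipoproteins and reelin. It had 119, 122 and 122 CPM in wild-type and 101, 99.5 and 103 CPM in transgenic mice and fell by 0.26 on the log2 scale (SE 0.039; edgeR adjusted p = 0.02). Both a GC offset (log2 fold change -0.15; edgeR adjusted p = 0.140) and gene length offsets (-0.15; edgeR adjusted p = 0.107) ended the call. The adjusted p in edgeR was 0.114 without wild-type mouse 1 (log2 fold change -0.26) and 0.123 without wild-type mouse 2 (-0.23). It was 0.0881 without transgenic mouse 2 (-0.22) and 0.0927 without transgenic mouse 3. The call was kept without wild-type mouse 3 (edgeR adjusted p = 0.0395) or without transgenic mouse 1 (0.0254). Lrp1, a receptor for many ligands including lipoproteins, had 618, 568 and 575 CPM in wild-type and 612, 553 and 561 CPM in transgenic mice (log2 fold change -0.029 ± 0.061; edgeR adjusted p = 0.797). Over the list the median log2 fold change was -0.050.

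In efflux, esterification and turnover 0 of 11 genes were called, with a median log2 fold change of 0.10. Ch25h, a cholesterol hydroxylase, was scarce at 0.631, 1.14 and 1.16 CPM in wild-type and 0.365, 1.05 and 1.04 CPM in transgenic mice, and its log2 fold change of -0.26 ± 0.42 was not distinguishable from 0 (edgeR adjusted p = 0.728). In fatty acid synthesis, which SREBP1 drives, 1 of 10 genes was called. Both counts stand beside 7.10% of all genes. Acacb, the mitochondrial acetyl-CoA carboxylase, had 14.1, 13.7 and 14.3 CPM in wild-type and 7.91, 9.49 and 9.16 CPM in transgenic mice and fell by 0.67 on the log2 scale (SE 0.087; edgeR adjusted p = 0.0126). Its call held with a GC offset (edgeR adjusted p = 0.00927). The adjusted p was 0.0757 without wild-type mouse 1 (log2 fold change -0.65), 0.0621 without wild-type mouse 2 (-0.67) and 0.0538 without transgenic mouse 3. The call was kept without wild-type mouse 3 (edgeR adjusted p = 0.0268), without transgenic mouse 1 (0.0146) or without transgenic mouse 2 (0.0336). Scd2, a fatty acid desaturase and the gene of highest FPKM of the list, had 1681, 1700 and 1591 CPM in wild-type and 1792, 1530 and 1536 CPM in transgenic mice (log2 fold change -0.034 ± 0.077; edgeR adjusted p = 0.816).

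Within each genotype the 7 genes varied from mouse to mouse in a similar order. This order was noticed in the values and is described without a test. Wild-type mouse 1 was the highest wild-type mouse for 7 of 7 genes, which held for 32.66% of all genes tested, and wild-type mouse 3 was the lowest for 6 of 7, which held for 39.37%. Transgenic mouse 3 was the lowest transgenic mouse for 7 of 7, against 27.68% of all genes, and transgenic mouse 1 was the highest for 5 of 7, against 39.11%. Both at once, wild-type mouse 3 and transgenic mouse 3 being lowest, was found for 6 of 7, the exception being Dhcr7, and for 13.27% of all genes. Among the 16 other genes of synthesis the corresponding counts were 11 for wild-type mouse 1, 12 for wild-type mouse 3, 13 for transgenic mouse 3, 10 for transgenic mouse 1 and 9 for both.

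The CPM ratio of wild-type mouse 1 to wild-type mouse 3 ran from 1.08 for Dhcr7 to 1.28 for Hmgcs1, and that of transgenic mouse 1 to transgenic mouse 3 from 1.11 for Idi1 to 1.28 for Sqle and Fdft1. The coefficient of variation between wild-type mice was 4.46% for Dhcr7, 6.31% for Fdft1 and 9.88% to 12.1% for the other 5, beside a median of 4.602% over 11191 genes with a mean above 3 on the log2 CPM scale. Between transgenic mice it was 7.09% to 12.7%, beside a median of 5.47%. Pearson's r of log2 CPM between pairs of the 7 genes over the 6 libraries had a median of 0.737 and ran from -0.12 to 0.936, as a description of values that share their libraries.

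**Figure D4:**
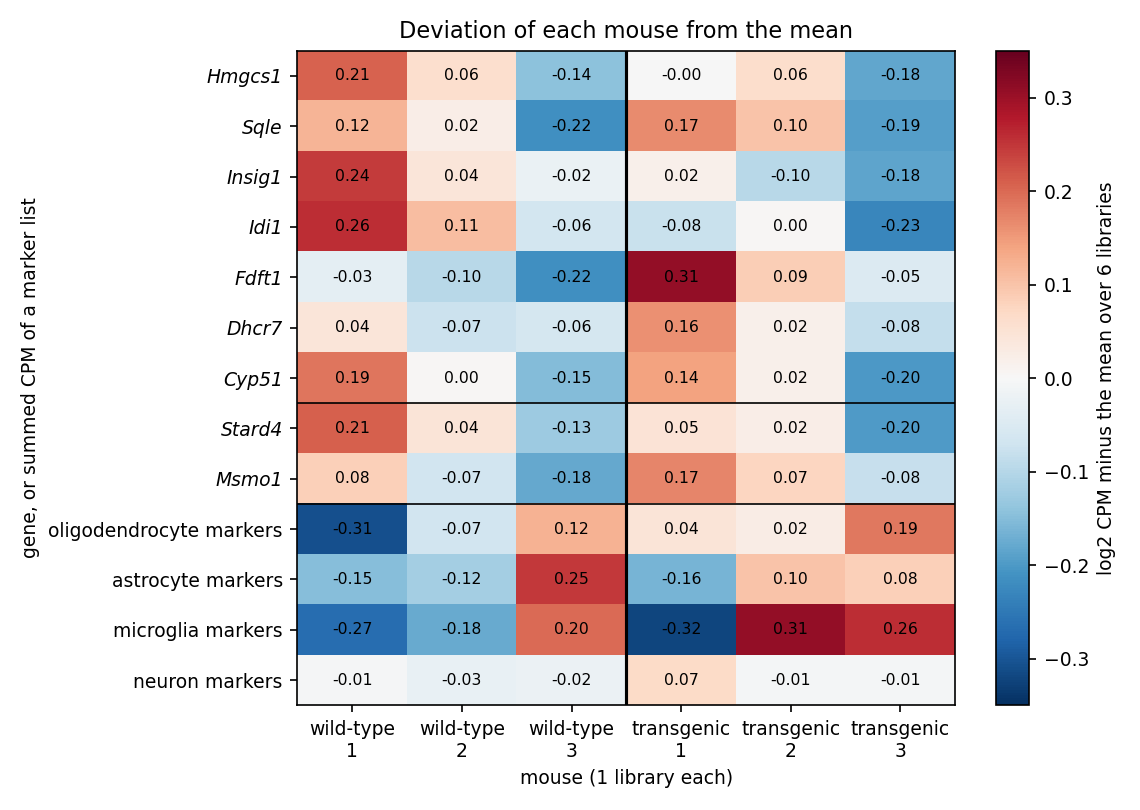
Log2 CPM of each row minus its mean over the 6 libraries, from blue (below) to red (above), for the 7 genes (top), 2 other sterol genes (middle) and the summed CPM of 4 lists of cell type markers (bottom). Wild-type mouse 1 is above the mean for 6 of the 7 genes and both mice numbered 3 are below it for all 7, while the microglia row runs from -0.27 in wild-type mouse 1 to 0.20 in wild-type mouse 3.

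Library sizes and cell type markers were set beside this order. Wild-type mouse 1 and transgenic mouse 1 had the largest libraries of their groups, 52497799 and 47027279 counted fragments. The summed level of 9 astrocyte markers was 6028, 6155 and 7932 CPM in wild-type and 5976, 7158 and 7081 CPM in transgenic mice. It was lowest in mouse 1 of each group, but the single markers did not all follow the sum. Slc1a2, the most abundant of the 9, had 3012, 3040 and 4020 CPM in wild-type and 2852, 3334 and 3391 CPM in transgenic mice. Fgfr3 was highest in mouse 1 of each group, at 123.1, 122.6 and 110.2 CPM in wild-type and 120.7, 114.8 and 110.5 CPM in transgenic mice. The summed level of 11 oligodendrocyte markers was 4791, 5664 and 6454 CPM in wild-type and 6120, 6038 and 6748 CPM in transgenic mice. That of 7 microglia markers was 294, 313 and 406 CPM in wild-type and 283, 438 and 423 CPM in transgenic mice. The 10 neuron markers summed to 12455 to 12632 CPM in wild-type and 12613 to 13272 CPM in transgenic mice. Between genotypes, beside 7.10% of all genes, edgeR called 0 of 9 astrocyte, 0 of 11 oligodendrocyte and 0 of 7 microglia markers, 1 of 10 neuron markers (Slc17a7, the vesicular glutamate transporter, higher) and 1 of 6 endothelial markers (Cldn5, a tight junction protein, higher). The part of library size and of these cell types in the mouse-to-mouse order was not tested.

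Genes were then ranked by how closely their log2 CPM over the 6 libraries followed the mean standardized profile of the 7, which was 0.98, 0.024 and -0.81 in wild-type mice 1, 2 and 3 and 0.71, 0.17 and -1.07 in transgenic mice 1, 2 and 3. Among 11184 genes with a mean above 3 on the log2 CPM scale, Mpc1-ps ranked 1 with a Pearson's r of 0.993, followed by Grk3 at 0.992, with Btbd11 at 0.969 and Stt3b at 0.967 at rank 4 and rank 5. Mpc1-ps is a copy of Mpc1 that shares 83.92% of its words with it, so its counts are uncertain. Grk3, a receptor kinase, had 149, 139 and 128 CPM in wild-type and 145, 140 and 128 CPM in transgenic mice. Of 51 genes of the sterol and lipid lists outside the 7 that could be ranked, 3 were among the 100 most alike, a class that holds 0.894% of all genes, and 14 were among the 1000 most alike, which hold 8.941%.

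Stard4, a carrier of sterol between membranes, ranked 14 with an r of 0.955. It had 30.8, 27.4 and 24.3 CPM in wild-type and 27.5, 27.0 and 23.2 CPM in transgenic mice, and like the 7 genes it did not pass the adjusted threshold (log2 fold change -0.087 ± 0.10; edgeR adjusted p = 0.625). Msmo1, a sterol methyl oxidase, ranked 161 with an r of 0.843. Stard4 and Msmo1 are named here after their ranks were seen. The ranks describe these 6 mice.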

How the data were processed

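RNAseq was performed on polyA RNA from hippocampi of 3 wild-type and 3 transgenic female mice. The authors filtered reads with Trimmomatic, aligned them to mm10 with STAR and counted fragments per gene by strand with featureCounts on the Ensembl 95 annotation; they deposited raw counts per gene, unpooled, with no normalization. Symbols came from GENCODE M21, in which 54809 of 54838 identifiers were found.

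Counts were tested with edgeR 4.0.16 (R 4.3.3) by the quasi-likelihood test, with TMM scaling (factors 0.9924 to 1.005), filterByExpr at a minimum count of 10 (19087 genes kept), no covariate and Benjamini-Hochberg adjustment at 0.05. The study's own test, NOISeq, was not used. DESeq2 1.42.0, limma-voom (limma 3.58.1), other scalings and filters, offsets for gene length and GC content and the omission of each mouse were alternatives. CPM were scaled by TMM; FPKM used the deposited gene length and the total counts. The SE was the log2 fold change over the root of F, and 95% intervals used its degrees of freedom. The scripts were tested on simulated data.

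The 7 genes and all lists were chosen with earlier results of these data known. Genes named beyond the 7 are, of each pathway list, those called, the one of highest FPKM in wild-type and the one of largest fold change, and the 5 most alike in profile. Some genes under this rule are not reported here; they are in the counts. Each library is 1 mouse, and no batch is given in the sources used here. No library duplicated another.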

Additional observations from a re-analysis of the deposited data

How the results depend on the processing

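None of the 7 genes was called in any of the 18 alternatives, with adjusted p from 0.0677 for Fdft1 to 0.993 for Hmgcs1. Insig1, Idi1 and Fdft1 kept their direction in all 18. With 1 mouse left out Insig1 ran from -0.23 (without transgenic mouse 1) to -0.079 (without wild-type mouse 1), Idi1 from -0.28 (without wild-type mouse 3) to -0.11 (without wild-type mouse 1) and Fdft1 from 0.13 (without transgenic mouse 1) to 0.34 (without transgenic mouse 3). Directions of estimates near 0 reversed for Hmgcs1 (0.036 with GC offsets, 0.038 with GC offsets and the replicate block, -0.17 to 0.016 when 1 mouse was left out) and Cyp51 (0.051, 0.049, and -0.11 to 0.081). They also reversed for Sqle (-0.033 to 0.17) and Dhcr7 (-0.0014 to 0.14) when 1 mouse was left out.

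The number of genes called, 1355 with edgeR, was 2230 with DESeq2, 775 with gene length offsets, 411 with GC offsets and 77 (without wild-type mouse 1) to 1149 (without transgenic mouse 1) when 1 mouse was left out. It was 94 without wild-type mouse 2, 192 without transgenic mouse 2 and 108 without transgenic mouse 3, but 1031 without wild-type mouse 3. The 2 synthesis genes called became 4 with DESeq2, 0 with length or GC offsets and 0 to 1 when 1 mouse was left out; without a filter on low counts both calls were lost and 1 other gene, Mvd, was called. The cause was not tested.

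Mice numbered 1 and mice numbered 3 deviated together across genes (r = 0.399 and 0.388) and mice numbered 2 did not (r = -0.357). Of unlike numbers, wild-type mouse 3 with transgenic mouse 2 (r = 0.536) and wild-type mouse 2 with transgenic mouse 1 (r = 0.4) also deviated together. The remaining unlike pairs had r from -0.588 to -0.254, so the numbers were not taken as pairs. With the replicate block 738 genes were called, 642 of them shared with the fit without it, and 1 synthesis gene, Mvd, while Mbtps2 lost its call (edgeR adjusted p = 0.0567), as did Ebp (0.0840) and Hsd17b7 (0.0722); with the block and length offsets 596 and 0, and with the block and GC offsets 477 and 0. Lrp1 reversed to 0.14 with length offsets and 0.13 with these and the block but was -0.12 with GC offsets, with and without the block, and Scd2 reversed to 0.0056 and 0.00057. With 1 mouse left out, Lrp1 ran from -0.076 to 0.026, Scd2 from -0.11 to 0.031 and Ch25h from -0.50 to 0.12. At an unadjusted p under 0.05, 3 of the 7 genes (Insig1, Idi1 and Fdft1) passed with the block (27.3% of all genes) and with the block and length offsets (24.9%), and 2 (Insig1 and Fdft1) with the block and GC offsets (22.4%), against 1 with neither block nor offsets (27.8%). The precision is that of 3 mice a group.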
